A study of Mus musculus with 2 samples.

Results

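Thyroid hormone signalling was followed through 6 genes of the 26840 in the merged gene table: Slco1c1, Dio2, Crym, Thra, Thrb and Tshr. They were chosen by name, as the genes that carry thyroid hormone into the hypothalamus, activate it, bind it and respond to it, and all 6 had rows in the table. Their transcripts were counted in tanycyte-like, ependymal-like, endothelial-like, pars tuberalis-like and neuron-like cells of mouse arcuate nucleus and median eminence. The assay was Drop-seq, a droplet method that tags each captured mRNA molecule at its 3′ end with a cell barcode and a unique molecular identifier (UMI).

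The study compared Irx5KO mice, which lack the Iroquois homeobox transcription factor Irx5, with wildtype (WT) mice. The Irx5KO library was made from 6 Irx5-/- mice and the WT library from 7 wildtype mice, all of the CD-1 strain and 7 to 8 weeks old. In each group the microdissected tissue was pooled and live cells were sorted before capture, so animals cannot be told apart. With 1 library per genotype no difference between genotypes has a replicate check, and none was tested. Every interval below is an exact 95% interval that covers counting error only.

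Barcodes with at least 500 genes were used, which left 1972 Irx5KO cells with 5001090 UMIs and 1829 WT cells with 3912463 UMIs. The median cell held 1702.5 UMIs in Irx5KO and 1621 UMIs in WT, and 1 barcode sequence occurred in both libraries. Irx5 had 0 UMIs in Irx5KO cells and 13 UMIs in 11 WT cells, but a 3′ tag outside the deleted part would check nothing. Cell classes were named from marker genes, after clustering without the 6 genes. All classes held most of their own markers. The summed level of the tanycyte markers in tanycyte-like cells was 3649 UMIs per 1000000 UMIs (counts scaled in this way are written CPM) in Irx5KO and 2792 CPM in WT, with 10 of 10 markers detected in each. Astrocyte markers summed higher in that class, to 4332 CPM in Irx5KO and 3156 CPM in WT. The other classes held 8 of 8 ependymal, 8 of 8 endothelial, 7 of 8 pars tuberalis (Cyp2f2 at 0) and 10 of 10 neuron markers in each library.

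Thyroxine reaches the brain mainly through transporters in capillary endothelium and in cells that border the cerebrospinal fluid. Tanycytes, the elongated glia that line the floor and lower walls of the ventricle, then convert it to the active hormone triiodothyronine with type 2 deiodinase, and the hormone acts through nuclear receptors in neurons and glia. In seasonal mammals and birds, thyrotropin from the pars tuberalis acts on a receptor in tanycytes and raises the deiodinase through cyclic AMP, which ties the supply of active hormone to day length.

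The promoters of Dio2 and Slco1c1 are shown because these genes stood on opposite sides in one of the tanycyte clusters described below. The RefSeq promoter table of build GRCm38.p6 held entries for 3 of the 6 genes, namely Slco1c1, Dio2 and Thrb; Crym, Thra and Tshr had no entry. The 250 bases before the RefSeq start are given 5′ to 3′ on the gene's own strand. That start differs from the gene bounds given below for Slco1c1, Dio2 and Thrb. Capitals mark TGACGTCA, the cyclic AMP response element, which was searched on both strands together with AGGTCA, a nuclear receptor half-site.
Dio2, chr12:90739039-90739288, minus strand: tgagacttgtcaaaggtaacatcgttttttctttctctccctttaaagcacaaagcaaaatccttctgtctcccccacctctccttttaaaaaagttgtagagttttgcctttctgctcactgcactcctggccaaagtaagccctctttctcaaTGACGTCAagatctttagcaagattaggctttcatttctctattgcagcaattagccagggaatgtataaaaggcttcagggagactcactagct
Slco1c1, chr6:141524104-141524353, plus strand: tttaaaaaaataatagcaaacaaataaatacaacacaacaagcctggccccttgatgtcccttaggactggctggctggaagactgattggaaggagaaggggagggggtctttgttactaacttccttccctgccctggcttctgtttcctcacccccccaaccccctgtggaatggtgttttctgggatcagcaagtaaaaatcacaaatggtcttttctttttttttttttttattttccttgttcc
TGACGTCA occurred once in the Dio2 window, beginning 95 bases before the start, and not in the Slco1c1 window. AGGTCA occurred in neither of them, and it was found 184 bases before the start in 1 of the 2 Thrb windows. Of 32851 promoter windows of this length, 1.55% held TGACGTCA and 14.0% held AGGTCA. A match of letters is a description and not a binding site.

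In tanycyte-like cells the transporter gene Slco1c1 was far lower in Irx5KO than in WT, and Tshr was lower as well. Dio2, Crym and Thra were higher in Irx5KO by less than 1.5-fold. Ratios were called at a size of at least 1.5-fold among genes with at least 50 UMIs over both libraries. Thrb was under that minimum, and Slco1c1 and Tshr reached it through their WT UMIs alone. Of the 5 genes that reached it, 2 were lower and 0 were higher in Irx5KO, against 8.17% lower and 10.5% higher among all 5922 genes measured in the class. The class held 425 Irx5KO and 325 WT cells, with medians of 1619 and 1766 UMIs per cell.

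**Figure D1:**
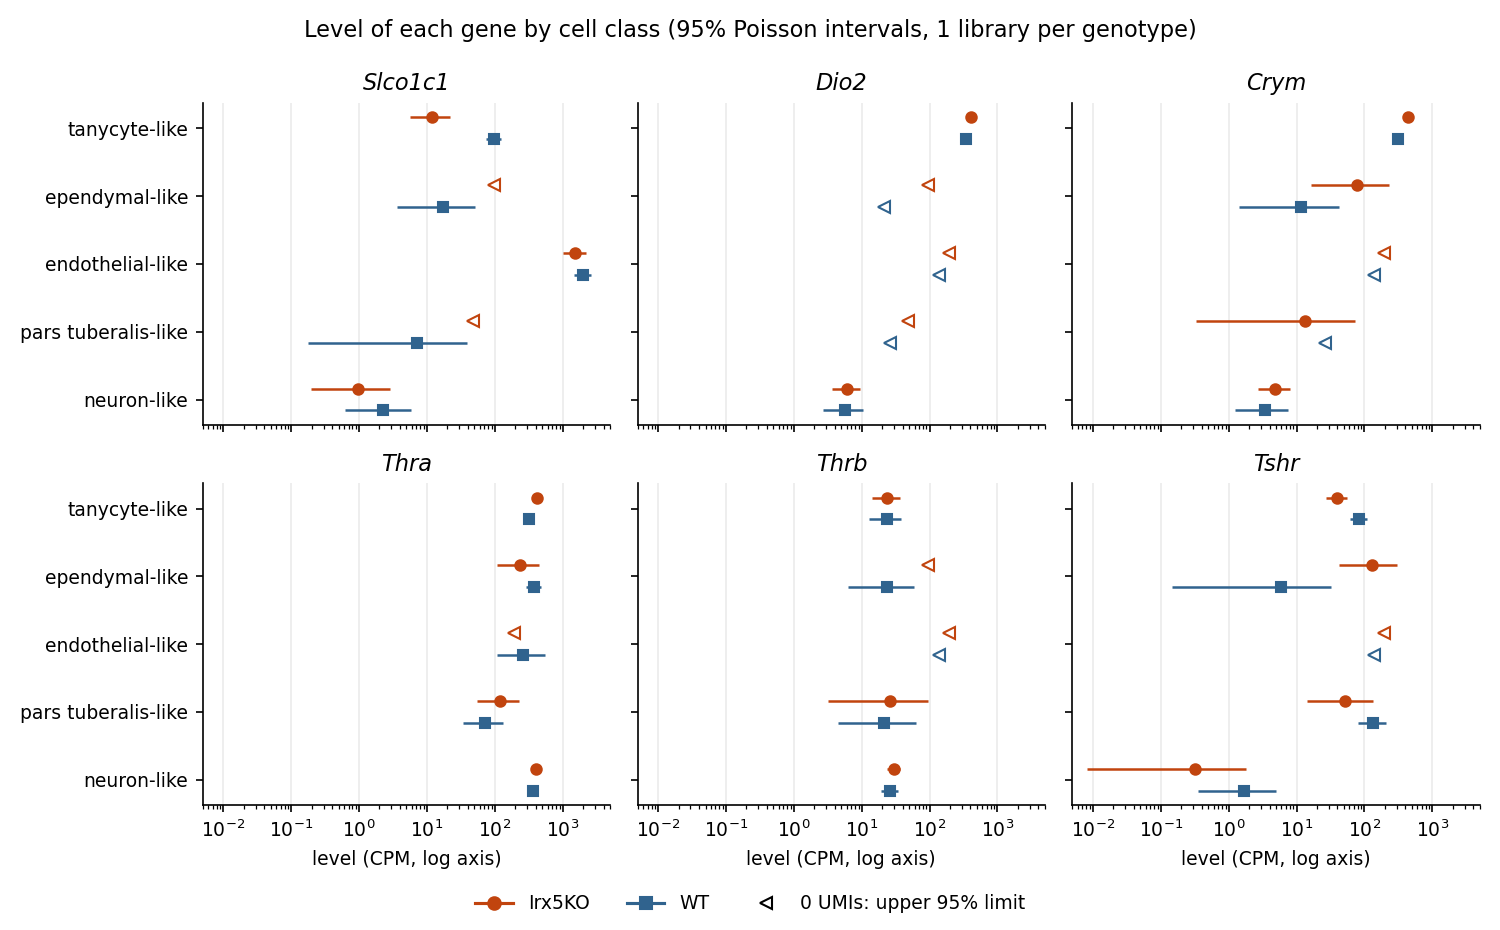
Level of each gene in CPM (log axis) in 5 cell classes, with Irx5KO (circles) above WT (squares) and 95% Poisson intervals; an open triangle marks the upper limit where a class had 0 UMIs. Slco1c1 stood at 11.8 CPM in Irx5KO and 96.0 CPM in WT tanycyte-like cells, while its endothelial levels overlapped.

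Slco1c1, on chromosome 6 from 141524368 to 141570177, encodes the organic anion transporter that takes up thyroxine at the blood-brain barrier. It had 10 UMIs in Irx5KO tanycyte-like cells, or 11.8 CPM (5.64 to 21.6), and 62 UMIs in WT tanycyte-like cells, or 96.0 CPM (73.6 to 123). The intervals were far apart, and the level was 8.16-fold lower in Irx5KO (4.15 to 17.8). Only 2 of the 5922 genes had a lower ratio of Irx5KO to WT. This rank is a description, because genes of every depth above the UMI minimum were ranked together. The WT UMIs alone brought Slco1c1 over that minimum, and ratios from few UMIs carry the widest counting error. Ranks of the genes below were not matched for UMIs either. The 10 UMIs of Irx5KO lay in 8 cells and the 62 UMIs of WT in 43 cells with at most 5 in 1 cell, so no single cell carried the difference. Over all cells of a library Slco1c1 was at 8.60 CPM in Irx5KO and 32.5 CPM in WT, 3.78-fold lower in Irx5KO (2.65 to 5.47); it was 2.34-fold lower as a mean over cells and 6.65-fold lower with at least 800 genes per barcode.

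Because depth differs between cells, the share of cells with a UMI was also read after thinning each cell to 1000 UMIs, which left out 83 Irx5KO and 51 WT tanycyte-like cells. Slco1c1 was then found in 4 of 342 Irx5KO cells (1.17%, Clopper-Pearson 0.320 to 2.97%) and in 24 of 274 WT cells (8.76%, 5.69 to 12.8%). Unthinned, the shares were 1.88% in Irx5KO and 13.2% in WT. Oligodendrocyte-like cells, which should lack the transporter, gave 1 of 106 Irx5KO cells (0.943%) and 0 of 165 WT cells, which allows up to 1.82%; their medians were 1740 and 1855 UMIs. The Irx5KO tanycyte share was therefore not distinguishable at this depth from that of Irx5KO oligodendrocyte-like cells, whose interval reached 5.14%. The WT tanycyte share was above that of WT oligodendrocyte-like cells. In summed UMIs, Irx5KO tanycyte-like cells, at 11.8 CPM (5.64 to 21.6), were above Irx5KO neuron-like cells, at 0.964 CPM (0.199 to 2.82). The part of free RNA in these levels was not tested.

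Endothelial-like cells held the highest Slco1c1 level in both libraries. They had 29 UMIs in 15 Irx5KO cells, or 1512 CPM (1013 to 2172), and 52 UMIs in 20 WT cells, or 1964 CPM (1467 to 2576), of which 16 were in 1 WT cell. These levels overlapped, with an Irx5KO to WT ratio of 0.770 (0.471 to 1.24), so the difference seen in tanycyte-like cells was not detectable there. Red blood cell genes summed to 0 CPM in the Irx5KO and 17337 CPM in the WT endothelial-like cells, and the part of this RNA in the ratio was not tested.

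The order of levels in Irx5KO was endothelial-like cells, then tanycyte-like cells, then oligodendrocyte-like cells at 3.47 CPM and neuron-like cells at 0.964 CPM. Below the endothelial-like cells no neighbours in that order differed beyond counting error. The tanycyte-like and neuron-like cells, which were not neighbours, had intervals that did not overlap. In WT astrocyte-like cells followed the endothelial-like cells with 3 UMIs in 12 cells (188 CPM). WT tanycyte-like cells stood next and exceeded ependymal-like cells, at 17.5 CPM, by 5.49-fold (1.79 to 27.3). Over 23 sums of a class and a library, the genes most like Slco1c1 in level were Cldn5 (Pearson r = 0.88), Hba-a1 (0.84), Ly6c1 (0.84), Egfl7 (0.83) and Hbb-bs (0.79). Sums of under 20 cells were left out, among them the 15 Irx5KO endothelial-like cells, so WT gave the only endothelial-like point. In the sum left out, red blood cell genes were at 0 CPM, against 17337 CPM in the WT sum. The 23 points share their libraries and differ in depth, and the correlations are descriptions.

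Markers of other cells in the tanycyte-like class were read beside the Slco1c1 difference. Endothelial markers summed to 95.3 CPM in Irx5KO (6 of 8 detected, Cldn5 and Cdh5 at 0) and 108 CPM in WT (6 of 8, Cdh5 and Ly6c1 at 0). In cells with a Slco1c1 UMI they stood at 117 CPM in Irx5KO (2 UMIs in 8 cells) and 80.5 CPM in WT (8 UMIs in 43 cells), and in cells without one at 94.9 CPM in Irx5KO and 113 CPM in WT. Astrocyte markers stood at 4142 CPM in Irx5KO and 3431 CPM in WT cells with a Slco1c1 UMI, and at 4336 CPM in Irx5KO and 3106 CPM in WT cells without. The astrocyte sums given above covered 7 of 7 markers in each library. Ependymal markers summed to 1114 CPM in Irx5KO and 1933 CPM in WT (8 of 8 each), and neuron markers to 713 CPM in Irx5KO and 350 CPM in WT (10 of 10 each). Anterior pituitary hormone genes summed to 105 CPM in Irx5KO (3 of 4, Fshb at 0) and 6.19 CPM in WT (2 of 4, Prl and Fshb at 0). The part of these differences in the levels below was not tested.

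Dio2, on chromosome 12 from 90724552 to 90738438, encodes type 2 deiodinase. It was concentrated in tanycyte-like cells, with 348 UMIs in Irx5KO, or 409 CPM (368 to 455), and 222 UMIs in WT, or 344 CPM (300 to 392). Neuron-like cells had 6.11 CPM in Irx5KO and 5.66 CPM in WT, and ependymal-like, endothelial-like and pars tuberalis-like cells had 0 UMIs in both libraries. The tanycyte level exceeded the next class 5.31-fold in Irx5KO (1.80 to 25.8, over astrocyte-like cells with 3 UMIs) and 10.4-fold in WT (5.38 to 23.0, over oligodendrocyte precursor-like cells with 9 UMIs). The Irx5KO to WT ratio in tanycyte-like cells was 1.19 (1.0 to 1.42), well inside the range of other genes, 29.5% of which had a higher ratio.

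After thinning, a Dio2 UMI was found in 80 of 342 Irx5KO tanycyte-like cells (23.4%) and 53 of 274 WT cells (19.3%), against 0 of 106 Irx5KO and 0 of 165 WT oligodendrocyte-like cells, which allow shares of up to 2.83% in Irx5KO and 1.82% in WT. The 2 intervals, 19.0 to 28.2% in Irx5KO and 14.8 to 24.5% in WT, overlapped. Among the genes most like Dio2 over the 23 sums were Frzb (r = 0.86), Mest (0.85), Crym (0.83) and Rax (0.78). In WT, 21 of the 43 cells with a Slco1c1 UMI also had a Dio2 UMI, against 88 of all 325; in Irx5KO it was 4 of 8 cells, against 149 of 425. Cells with a Slco1c1 UMI were deeper, with medians of 1732 UMIs in Irx5KO and 2065 UMIs in WT, against 1618 UMIs in Irx5KO and 1695.5 UMIs in WT for cells without.

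Crym, on chromosome 7 from 120186380 to 120202111, encodes mu-crystallin, a cytosolic protein that binds triiodothyronine. It had 371 UMIs in Irx5KO tanycyte-like cells, or 436 CPM (393 to 483), and 205 UMIs in WT tanycyte-like cells, or 317 CPM (275 to 364). The intervals did not overlap, the ratio was 1.38 (1.16 to 1.64), and 15.5% of measured genes had a higher one. In Irx5KO the 33 astrocyte-like cells had 463 CPM from 18 UMIs in 6 cells, with 9 UMIs in 1 cell. This was next to the tanycyte-like level and not distinguishable from it by counting error. In WT the 12 astrocyte-like cells had 1 UMI. Vascular leptomeningeal-like cells had 9 UMIs in Irx5KO (48.0 CPM, 22.0 to 91.2) and 6 in WT (35.2 CPM, 12.9 to 76.7), and ependymal-like cells 3 in Irx5KO (78.3 CPM) and 2 in WT (11.7 CPM). Neuron-like cells were lower, at 4.82 CPM in Irx5KO and 3.39 CPM in WT. The genes most like Crym were Gpr50 (r = 0.91), Fgf10 (0.88), Lix1 (0.87), Col23a1 (0.86) and Frzb (0.86).

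**Figure D2:**
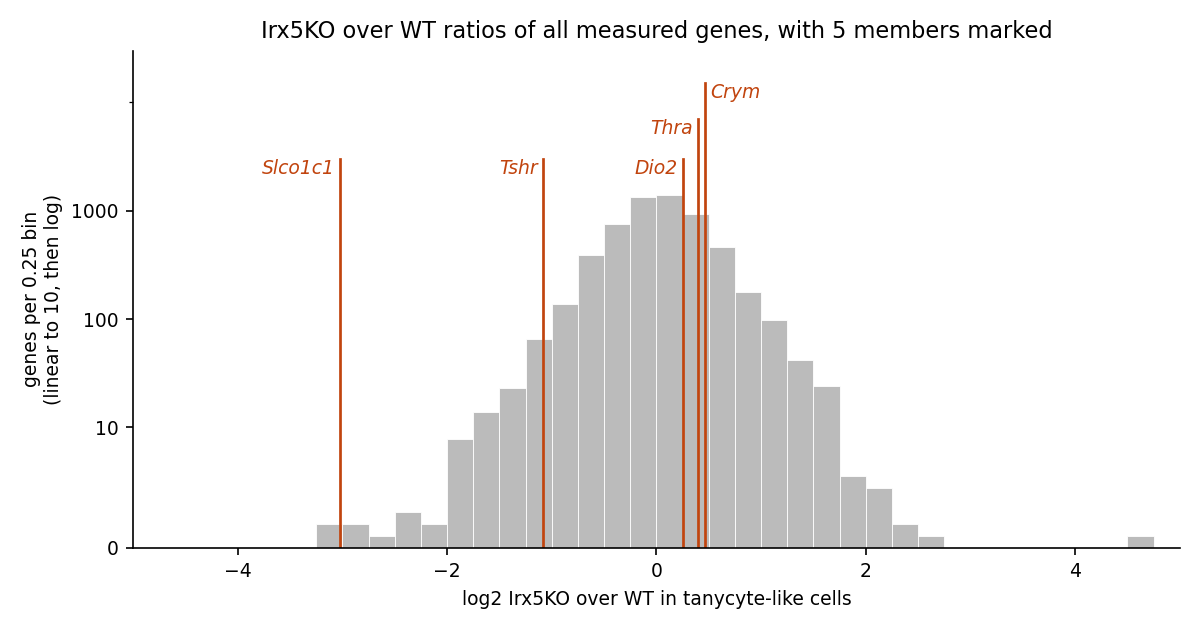
Number of genes by log2 ratio of Irx5KO to WT in tanycyte-like cells, in bins of 0.25 (vertical axis linear to 10 and logarithmic above). Of the 5922 genes with at least 50 UMIs, those with 0 UMIs in 1 library have no finite ratio and are not drawn. Red lines mark 5 of the 6 genes. Slco1c1 at -3.03 stood at the far low edge and Tshr at -1.08 in the low tail, while Dio2, Thra and Crym lay between 0.25 and 0.46.

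Tshr, on chromosome 12 from 91384563 to 91549808, encodes the thyrotropin receptor, through which pars tuberalis thyrotropin reaches tanycytes. It had 33 UMIs in Irx5KO tanycyte-like cells, or 38.8 CPM (26.7 to 54.5), and 53 UMIs in WT tanycyte-like cells, or 82.0 CPM (61.4 to 107). The intervals did not overlap, and the level was 2.11-fold lower in Irx5KO (1.34 to 3.37). Of the 5922 genes, 94 had a lower ratio, a rank that was again not matched for UMIs. The WT UMIs alone brought Tshr over the UMI minimum as well. After thinning, 16 of 342 Irx5KO cells (4.68%, 2.70 to 7.49%) and 25 of 274 WT cells (9.12%, 5.99 to 13.2%) had a Tshr UMI. Oligodendrocyte-like cells had none in 106 Irx5KO cells, which allows a share of up to 2.83%, and none in 165 WT cells, which allows up to 1.82%.

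Pars tuberalis-like cells also held Tshr. They had 4 UMIs in 2 of 46 Irx5KO cells, or 52.4 CPM (14.3 to 134), and 19 UMIs in 16 of 77 WT cells, or 135 CPM (81.4 to 211). The ratio, 0.388 (0.0959 to 1.17), did not differ from 1 beyond counting error, and 3 of the 4 Irx5KO UMIs came from 1 cell. Without the cell with most UMIs in each library the level was 8.53-fold lower in Irx5KO, from 1 UMI against 16. Tanycyte markers in this class summed to 52.4 CPM in Irx5KO (2 of 10 detected) and 99.6 CPM in WT (3 of 10), with Rax, Scn7a, Gpr50 and Frzb at 0 in both.

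Ependymal-like cells had 5 Tshr UMIs in 27 Irx5KO cells (130 CPM, 42.4 to 304) and 1 UMI in 96 WT cells (5.83 CPM, 0.148 to 32.5). The ratio of 22.4 had an interval of 2.51 to 1059, and tanycyte markers summed to 339 CPM in these Irx5KO cells and 210 CPM in the WT cells; their part was not tested. Neuron-like cells had 1 UMI in Irx5KO and 3 in WT. Ependymal-like, pars tuberalis-like and tanycyte-like cells, in that order of level in Irx5KO, did not differ from their neighbours beyond counting error. In WT 3 UMIs in 12 astrocyte-like cells gave the highest level (188 CPM), and pars tuberalis-like and tanycyte-like cells followed. Over the 23 sums Rbp4 (r = 0.78), Agtrap (0.74), Msi2 (0.74), Lhx2 (0.73) and Fars2 (0.70) were most like Tshr.

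Tanycyte-like cells fell into 2 clusters, named from markers of position along the ventricle, and several of the genes differed in level between them. Position itself was not measured. The first was median eminence-like, with 104 Irx5KO and 73 WT cells. Its markers Scn7a (2681 CPM in Irx5KO and 1674 CPM in WT), Col25a1 (1439 CPM in Irx5KO and 1144 CPM in WT) and Adm (171 CPM in Irx5KO and 224 CPM in WT) were all far above their levels in the second cluster.

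The second was ventricle wall-like, with 321 Irx5KO and 252 WT cells, and its name rests on less. Frzb (263 CPM in Irx5KO and 247 CPM in WT) and Vcam1 (91.2 CPM in Irx5KO and 79.3 CPM in WT) were above the first cluster. Slc17a8 had 3 UMIs in each library, Cd59a did not differ between the clusters, and the astrocyte genes Mlc1 and Gja1 were among its 10 leading genes. Tanycyte markers there summed to 1990 CPM in Irx5KO and 1774 CPM in WT (10 of 10 each). In the first cluster they summed to 7235 CPM in Irx5KO and 5193 CPM in WT (9 of 10 each). Astrocyte markers of the wall-like cluster summed higher than its tanycyte markers, to 3933 CPM in Irx5KO and 3196 CPM in WT. Its ependymal markers summed to 1554 CPM in Irx5KO and 2599 CPM in WT (8 of 8 each), above its tanycyte markers in WT.

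Dio2 was highest in the median eminence-like cluster of both libraries, and Crym and Tshr in the ventricle wall-like cluster. In Irx5KO Dio2 stood at 703 CPM (606 to 810, 189 UMIs) in the median eminence-like and 274 CPM (233 to 320, 159 UMIs) in the wall-like cluster. In WT the levels were 790 CPM (669 to 926, 152 UMIs) in the median eminence-like and 154 CPM (120 to 195, 70 UMIs) in the wall-like cluster. The median eminence-like level was thus 2.57-fold higher in Irx5KO (2.07 to 3.19) and 5.12-fold higher in WT (3.83 to 6.90), and these intervals did not overlap.

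Of the 3 genes with at least 50 tanycyte-like UMIs in each library, Dio2 was at least 1.5-fold higher in the median eminence-like cluster of both libraries, as were 9.35% of 2630 genes. Crym was lower there in both, as were 10.6%, by 5.67-fold in Irx5KO (104 against 590 CPM) and 10.4-fold in WT (41.6 against 434 CPM). Thra was lower by less than 1.5-fold in both. Tshr, with fewer UMIs, was 4.63-fold lower in the median eminence-like cluster of Irx5KO (1.44 to 23.7) and 2.39-fold lower in that of WT (1.11 to 5.86). When the cells were split by their median eminence markers instead of by cluster, Crym was 1.77-fold lower in Irx5KO and 1.84-fold lower in WT. Tshr was then 2.53-fold lower in Irx5KO and 1.15-fold lower in WT, which is under the 1.5-fold size.

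**Figure D3:**
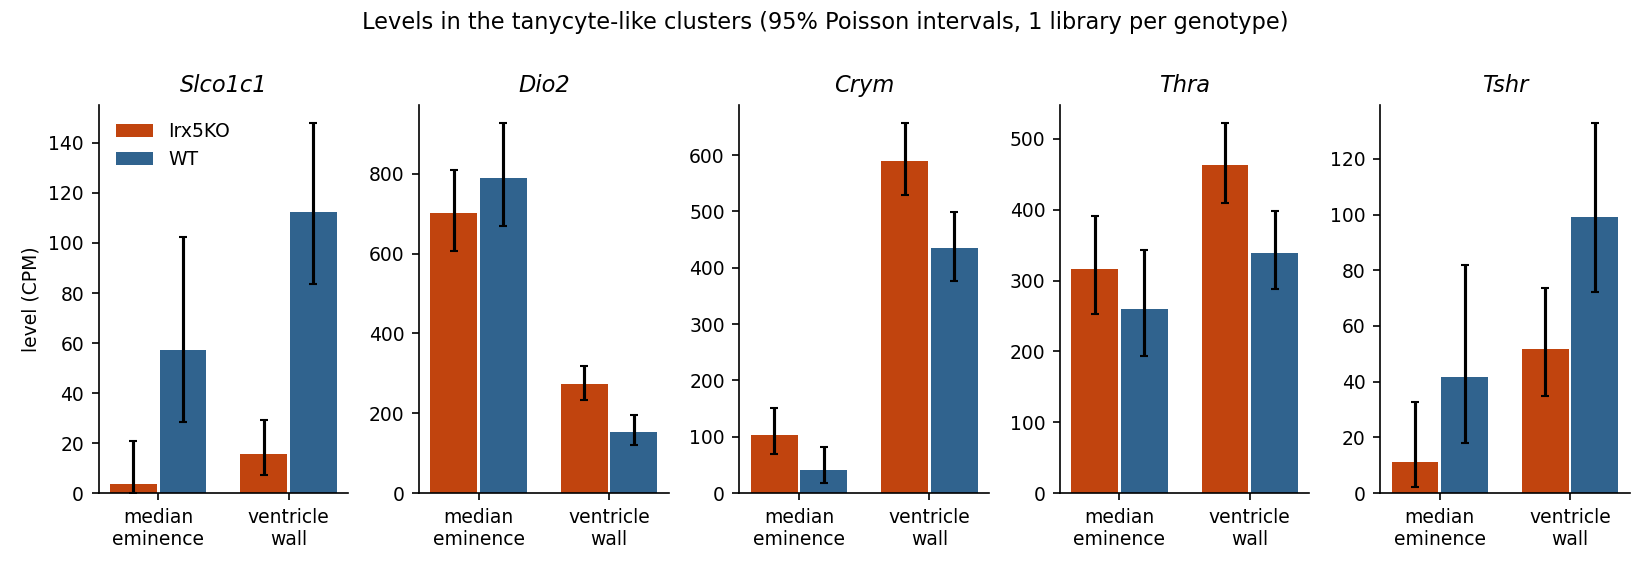
Levels of 5 genes in CPM in the median eminence-like and ventricle wall-like tanycyte clusters, with Irx5KO bars left of WT bars and 95% Poisson intervals. Dio2 was higher in Irx5KO in the wall-like cluster (274 CPM in Irx5KO and 154 CPM in WT), with overlapping intervals in the median eminence-like cluster, and Slco1c1 was lower in Irx5KO in both clusters.

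Between the genotypes, 5 of the 6 genes reached 50 UMIs in the wall-like cluster. Of these, Slco1c1 and Tshr were at least 1.5-fold lower in Irx5KO, as were 9.02% of 4348 genes, and Dio2 was higher, as were 10.7%, so that 19.7% of genes were apart in either direction. The Dio2 ratio was 1.77 (1.33 to 2.38), and 5.22% of genes had a higher one. Slco1c1 was 7.26-fold lower in Irx5KO (3.54 to 16.8), with 9 UMIs against 51 in WT, which alone reached the UMI minimum. Tshr was 1.92-fold lower in Irx5KO (1.18 to 3.16), at 51.6 CPM in Irx5KO and 99.2 CPM in WT.

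In the median eminence-like cluster only Dio2 and Thra reached 50 UMIs, and neither was 1.5-fold apart, as were 12.1% of 1970 genes higher and 10.8% lower. The Dio2 ratio there was 0.889 (0.715 to 1.11). Slco1c1 had 1 UMI in Irx5KO and 11 UMIs in WT, a ratio of 0.0650 (0.00151 to 0.447). Crym had 28 UMIs in Irx5KO (104 CPM) and 8 in WT (41.6 CPM), a ratio of 2.5 (1.11 to 6.36). Tshr had 3 UMIs in Irx5KO and 8 in WT, 3.73-fold lower in Irx5KO with an interval of 0.895 to 21.8. The ratios of Slco1c1, Crym and Tshr rest on few UMIs, and their intervals overlapped those of the wall-like cluster. The Dio2 interval did not overlap that of the wall-like cluster, 1.33 to 2.38. After thinning, 44 of 89 Irx5KO cells (49.4%) and 29 of 65 WT cells (44.6%) of this cluster had a Dio2 UMI, against 36 of 253 Irx5KO cells (14.2%) and 24 of 209 WT cells (11.5%) of the wall-like cluster. At 1000 UMIs the wall-like shares, 10.2 to 19.2% in Irx5KO and 7.50 to 16.6% in WT, overlapped, so the Dio2 difference there rests on the summed UMIs and was not detectable in the share of cells.

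The wall-like cluster also depended on the cells used. When barcodes with at least 200 or at least 800 genes were clustered again, it took an astrocyte name, and the tanycyte-like class then held the median eminence-like cluster alone. In that class Dio2 was on the other side of 1, with log2 ratios of Irx5KO to WT of -0.14 and -0.18. With at least 200 genes Slco1c1 was 21.2-fold and Tshr 4.86-fold lower in Irx5KO in that class, which held 120 Irx5KO and 98 WT cells. At 500 genes the median eminence-like cluster had 1 Slco1c1 UMI in Irx5KO and 11 in WT. Tshr had 3 UMIs there in Irx5KO and 8 in WT, and both ratios had wide intervals. The size of these folds is therefore uncertain. Neuron markers in the wall-like cluster summed to 838 CPM in Irx5KO and 324 CPM in WT, anterior pituitary hormone genes to 117 CPM in Irx5KO (3 of 4, Fshb at 0) and 8.82 CPM in WT (2 of 4, Prl and Fshb at 0), and astrocyte markers to 3933 CPM in Irx5KO and 3196 CPM in WT. Their part in the Dio2 and Tshr ratios was not tested.

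Thra, on chromosome 11 from 98740638 to 98769006, encodes the thyroid hormone receptor alpha, the main receptor form in brain. It was the most widely spread of the 6 genes. Neuron-like cells had 1257 UMIs in Irx5KO, or 404 CPM (382 to 427), and 645 UMIs in WT, or 365 CPM (337 to 394). Tanycyte-like cells had 354 UMIs in Irx5KO, or 416 CPM (374 to 462), and 204 UMIs in WT, or 316 CPM (274 to 362). The ratios were small, 1.11 (1.01 to 1.22) in neuron-like and 1.32 (1.11 to 1.57) in tanycyte-like cells, and 41.3% and 19.0% of genes in these classes had a higher one.

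Committed oligodendrocyte precursor-like cells held 799 CPM in 15 Irx5KO cells and 639 CPM in 20 WT cells, the highest Thra level in Irx5KO and, after 11 UMIs in 12 astrocyte-like cells, the next in WT. Below them the levels in Irx5KO ran down through oligodendrocyte-like (483 CPM), oligodendrocyte precursor-like (447 CPM), tanycyte-like and neuron-like cells to pars tuberalis-like cells (118 CPM, 53.9 to 224) and microglia-like cells (10.7 CPM, 1 UMI). Neighbours in the full order down to neuron-like cells did not differ beyond counting error. In WT the order continued with ependymal-like (379 CPM), oligodendrocyte-like (370 CPM), neuron-like, tanycyte-like, pars tuberalis-like (71.1 CPM, 34.1 to 131) and microglia-like cells (65.5 CPM, 5 UMIs); the committed precursor-like level exceeded the ependymal-like one 1.69-fold (1.12 to 2.53), and neighbours from there to tanycyte-like cells did not differ. Endothelial-like cells had 0 UMIs in 15 Irx5KO cells and 7 UMIs in 20 WT cells (264 CPM). After thinning, 267 of 771 Irx5KO neuron-like cells (34.6%) and 144 of 508 WT neuron-like cells (28.3%) had a Thra UMI, against 0 of 43 Irx5KO and 2 of 30 WT microglia-like cells (6.67%), at class medians of 1262.5 UMIs in Irx5KO and 1019 UMIs in WT. None of the 6 genes reached 50 UMIs in microglia-like cells, where 32.1% of 480 genes were 1.5-fold apart.

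In neuron-like cells 0 of the 2 genes measured, Thra and Thrb, were 1.5-fold apart, against 12.5% of 10905 genes higher and 6.38% lower in Irx5KO. In oligodendrocyte-like cells Thra was not 1.5-fold apart either, with a ratio of 1.3 (1.03 to 1.65), against 10.4% higher and 9.71% lower among 2554 genes (20.1% in all), and 18 of its 139 Irx5KO UMIs were in 1 cell. Oligodendrocyte precursor-like cells had 52 UMIs in 80 Irx5KO cells, or 447 CPM, and 70 UMIs in 188 WT cells, or 257 CPM. This was 1.74-fold higher in Irx5KO (1.19 to 2.53), a size that 7.31% of 1750 genes reached in that direction and 21.7% in either, and 2.69% of genes had a higher ratio.

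Thra counts carry an uncertainty of annotation. Exons of Thra overlap exons of Nr1d1, which lies on the opposite strand, over 263 bases of chromosome 11 from 98768157 to 98768419, and Nr1d1 was counted as a gene of its own. The transcripts Thra-201 and Thra-203 reach the overlap and Thra-202 and Thra-208 end before it. Use of strand in counting was not given in the sources used here, so reads from that stretch cannot be assigned with certainty. Nr1d1 itself was lower in Irx5KO tanycyte-like cells, at 58.8 CPM in Irx5KO and 101 CPM in WT, 1.71-fold (1.16 to 2.52). Genes most like Thra over the 23 sums were Cxx1b (r = 0.87), B4gat1 (0.84), CT571252.1 (0.83), Tspan3 (0.82) and Slc25a4 (0.81).

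Thrb, on chromosome 14 from 17660261 to 18038090, encodes the thyroid hormone receptor beta, which in the hypothalamus takes part in the feedback of thyroid hormone on thyrotropin-releasing hormone. Its counts were low. Neuron-like cells had 92 UMIs in Irx5KO, or 29.6 CPM (23.8 to 36.3), and 46 UMIs in WT, or 26.0 CPM (19.0 to 34.7), a ratio of 1.14 (0.789 to 1.66). Tanycyte-like cells had 20 UMIs in Irx5KO (23.5 CPM, 14.4 to 36.3) and 15 UMIs in WT (23.2 CPM, 13.0 to 38.3). These 4 intervals all overlapped. Ependymal-like cells had 0 UMIs in Irx5KO and 4 in WT, pars tuberalis-like cells had 2 in Irx5KO and 3 in WT, and endothelial-like cells had 0 in both. Dhx32 (r = 0.79), Idh3b (0.78), Akap17b (0.75), Cox8a (0.75) and Zfp322a (0.74) were most like it.

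Within neuron-like cells, clustered again into 11 groups, the highest Thrb level was in 1 cluster of both libraries, although most Thrb UMIs lay outside it. The cluster led by Tac1 and Sox14 held 17 UMIs in 48 Irx5KO cells, or 81.7 CPM (47.6 to 131), and 20 UMIs in 39 WT cells, or 128 CPM (78.2 to 198). All other neuron-like cells together had 25.8 CPM in Irx5KO and 16.1 CPM in WT. The cluster was therefore 3.16-fold above the rest in Irx5KO (1.75 to 5.40) and 7.94-fold above it in WT (4.2 to 14.8), and it ranked first in each library separately. In Irx5KO its interval overlapped that of the cluster led by Avp and Oxt, at 55.2 CPM (25.2 to 105). The clusters led by Fezf1 and Adcyap1, Npvf and Pomc, Tac2 and Kiss1, and Crabp1 and Ghrh also had overlapping intervals there. The WT interval overlapped those led by Crabp1 and Ghrh (16.5 to 97.8), Tac2 and Kiss1 (0.502 to 110), and Npy and Agrp (0 to 92.3). The cluster led by Npvf and Pomc held the most Irx5KO UMIs, 35 of 92. The cluster led by Tac1 and Sox14 was picked as the highest of the 11 clusters, so its folds are descriptions. The clusters were formed without Thrb.

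Thra followed another pattern over the same clusters. It lay between 256 CPM and 601 CPM in Irx5KO and between 75 CPM and 466 CPM in WT, where the lowest value came from 3 UMIs in 6 cells led by Npy and Agrp. In Irx5KO the highest level was in the cluster led by Avp and Oxt (601 CPM, 488 to 732), which had 338 CPM (254 to 441) in WT. That cluster had the lowest median depth of these clusters, at 1265 UMIs per cell. Agrp, Npy, Crabp1, Pomc and Sst were also among its leading genes, so it is not named as 1 neuron type. In WT the highest Thra level was in the cluster led by Foxb1 and Cpne9 (466 CPM, 350 to 608), which had 410 CPM (305 to 541) in Irx5KO. The cluster with the most Thrb had middling Thra, at 331 CPM in Irx5KO and 384 CPM in WT.

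**Figure D4:**
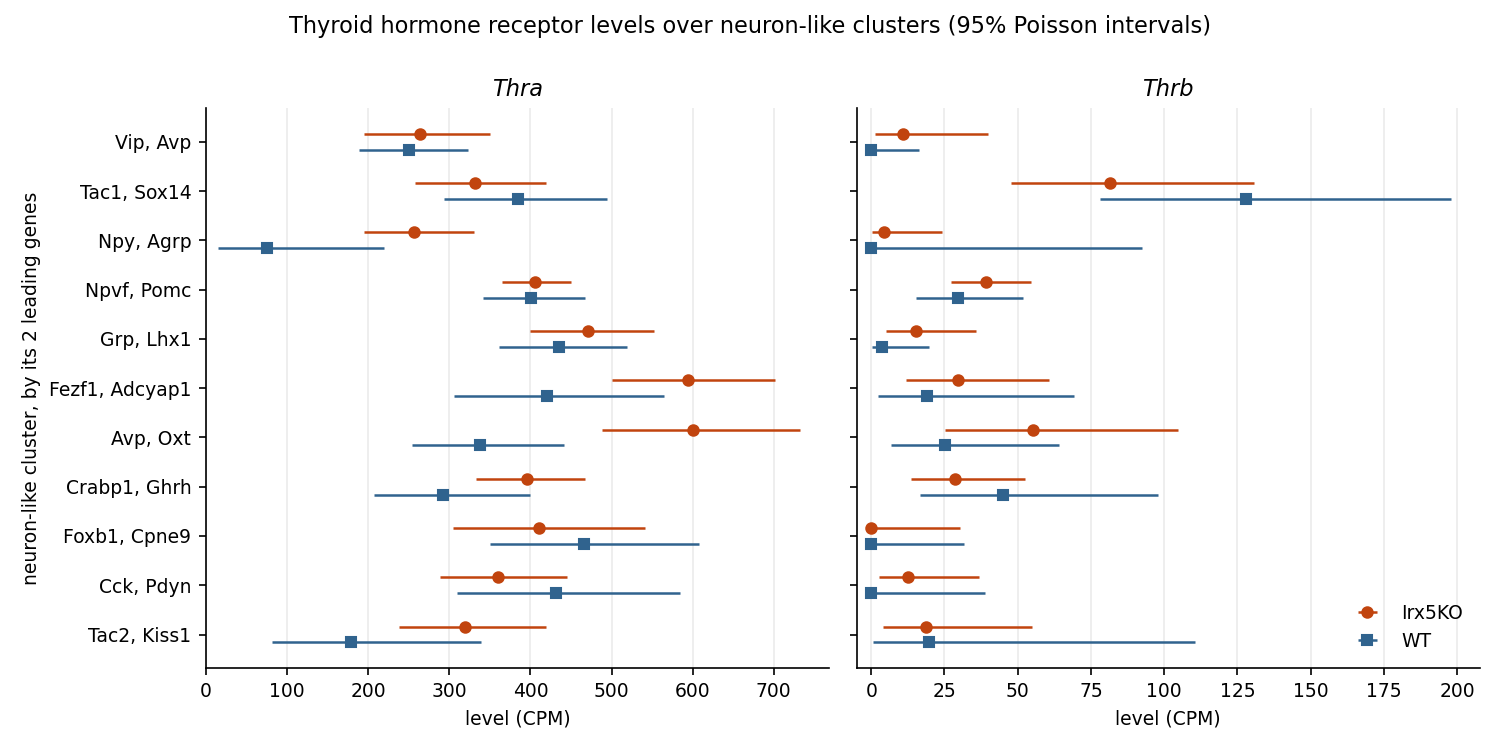
Levels of Thra and Thrb in CPM over 11 neuron-like clusters, named by their 2 leading genes, with Irx5KO (circles) above WT (squares) and 95% Poisson intervals. Thrb was highest in the cluster led by Tac1 and Sox14 in both libraries (81.7 CPM in Irx5KO and 128 CPM in WT), while Thra varied without a common leading cluster.

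Of 41 further genes of thyroid hormone signalling, chosen as transporters, deiodinases and carriers, thyrotropin and releasing hormone signals, receptor partners and targets, 38 were in the table. In tanycyte-like cells 10 were measured, 0 were at least 1.5-fold higher and 1 was lower in Irx5KO, against 10.5% higher and 8.17% lower over all genes, with a median log2 ratio of -0.12 against 0.03 over all genes. That gene was Nr1d1, which encodes the heme-binding clock repressor Rev-erb alpha. Klf9, a transcription factor induced by thyroid hormone, was at 158 CPM in Irx5KO and 166 CPM in WT, and the co-repressor gene Ncor1 was at 234 CPM in Irx5KO and 238 CPM in WT. Dio3, whose deiodinase inactivates the hormone, had 3 UMIs in Irx5KO and 9 in WT, 7 of them in 1 cell.

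In neuron-like cells 21 of these genes were measured, 2 were at least 1.5-fold higher and 5 lower in Irx5KO, against 12.5% higher and 6.38% lower over all genes, and the median log2 ratio was -0.26 against 0.07 over all genes. Nrgn, which encodes neurogranin and is induced by thyroid hormone in rodent brain, was 2.27-fold higher (126 CPM in Irx5KO and 55.4 CPM in WT). Rxrb, a partner of the nuclear receptors, was 1.60-fold higher, with an interval of 0.971 to 2.74. Trh, the releasing hormone, was 2.48-fold lower (38.3 CPM in Irx5KO and 95 CPM in WT), and the receptor partner Rxrg was 1.63-fold lower (51.8 CPM in Irx5KO and 84.3 CPM in WT). Neuron-like cells differed in make-up between the libraries (the cluster led by Crabp1 and Ghrh held 110 of 901 Irx5KO cells and 41 of 618 WT cells), and the part of that make-up in these ratios was not tested. Ncoa3, a receptor coactivator gene, was at 11.3 CPM in Irx5KO and 17.0 CPM in WT, 1.51-fold lower with an interval of 0.895 to 2.53. Cga, the fifth of the lower genes, was at 15.8 CPM in Irx5KO and 26.0 CPM in WT neuron-like cells. Its intervals were 11.7 to 20.8 CPM in Irx5KO and 19.0 to 34.7 CPM in WT. They overlapped those in tanycyte-like cells, 11.7 to 32.0 CPM in Irx5KO and 20.1 to 49.7 CPM in WT. The part of free RNA in the neuron-like level was not tested. Ttr, the plasma and cerebrospinal fluid carrier of thyroxine, had 9 UMIs in Irx5KO and 306 in WT, of which 293 were in 1 cell.

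The signal that reaches Tshr was read in pars tuberalis-like cells, whose class was partly defined by it. Tshb, the thyrotropin subunit, was at 2882 CPM in Irx5KO and 4118 CPM in WT, and Cga, the common glycoprotein subunit, at 11435 CPM in Irx5KO and 21031 CPM in WT. Eya3, which activates Tshb in the sheep pars tuberalis, had 17 UMIs in Irx5KO and 8 in WT. Among the endothelial transporters Slco1a4 had 33 UMIs in Irx5KO (1721 CPM) and 29 in WT (1095 CPM), a ratio of 1.57 (0.925 to 2.68), and Slc7a5 had 8 UMIs in Irx5KO and 7 in WT. The organic anion transporter gene Slco1a4 was thus on the other side of 1 from Slco1c1 in these cells, and neither ratio differed from 1 beyond counting error.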

How the data were processed

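Per the labels' protocols, cells were processed by Drop-seq and only 3′ ends were amplified. Tools in the submitters' processing notes are STAR 2.6.0b, Picard, bcl2fastq and Seurat 3, with the build mm10; roles and settings were not given in the sources used here. UMI counts of the WT library, for 2800 barcodes, were deposited by the authors. The authors deposited the Irx5KO library (2350 barcodes) and a merged table of both (4977 barcodes) as natural log values, ln(1 + count), with each barcode first scaled to 10000 UMIs. UMI counts were recovered from these, with 100% of values whole within 1e-06, and 0 of 4276208 UMIs differed from the deposited WT counts. Raw counts had been assumed for both libraries when the tests were chosen. The merged table omits 173 WT barcodes, and its cells have at most 9.93% (Irx5KO) and 9.95% (WT) mitochondrial UMIs.

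Barcodes of the merged table with at least 500 genes were used (587 to 14342 UMIs in Irx5KO, 587 to 14524 UMIs in WT). No doublets were removed in the values given; the Scrublet method called 23 Irx5KO cells (1.17%) and 10 WT cells (0.547%). Cells were clustered with scanpy 1.11.5 on 2000 variable genes, 30 principal components and 15 neighbours at Leiden resolution 1, without integration, leaving out 41 genes: the 6 genes and those of the thyroid list that are not pars tuberalis markers. Neuron-like cells were clustered again. Clusters took the name of the marker list with most genes among their 10 leading genes, given a mean log2 marker excess of at least 1 and 3 markers at least 2-fold up; ties went to the larger excess, which named 2 neuron-like clusters with no listed marker among their leading genes; this way of scoring was chosen once the clusters were known.

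UMIs were summed per class and library and given as CPM with exact Poisson intervals; ratios have exact conditional binomial intervals, and shares Clopper-Pearson intervals. Where a count was 0, the limit is 3 counts of the total. The interval code was tested on simulated data. No test was run across genes, since each genotype has 1 library. The 6 genes, the lists and the markers were chosen with earlier results of these data known. The genes named are the 6 genes, the 5 most correlated with each (log2 of CPM plus 10, genes with at least 200 UMIs) and genes of the thyroid list with at least 50 UMIs in tanycyte-like, neuron-like or pars tuberalis-like cells; others of the list, and the genes of markers, were named after their values were seen. One gene that this rule names is not reported here. Alternatives covered the gene minimum, barcodes, doublets, resolution, genes clustered, scaling (edgeR 4.0.16 TMM and median of ratios), means over cells, the UMI minimum, thinning depth and single cells left out.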

Additional observations from a re-analysis of the deposited data

Results flagged for a closer look

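Barcodes of the merged table with under 500 genes, 378 in Irx5KO and 798 in WT, were not used above, and UMIs of all 6 genes were present in them. The signal was above the limit that a count of 0 allows for each gene and library given here. Slco1c1 had 10 UMIs in the Irx5KO barcodes and 31 in the WT barcodes, Dio2 had 14 in Irx5KO and 12 in WT, and Crym had 27 in Irx5KO and 16 in WT. Thra had 63 UMIs in the Irx5KO and 103 in the WT barcodes, Thrb had 6 in Irx5KO and 10 in WT, and Tshr had 16 in WT. Scaled to all UMIs of these barcodes, Slco1c1 stood at 50.3 CPM in Irx5KO and 85.2 CPM in WT, and Crym at 136 CPM in Irx5KO and 44.0 CPM in WT. The barcodes have no class, so these levels mix cell types.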

How the results depend on the processing

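No paired analysis was possible because each genotype has 1 library. Over 17 alternative settings, 440 of 506 recomputed values stayed within their counting interval or within 1.5 times the count. Slco1c1 stayed at least 1.5-fold lower in Irx5KO tanycyte-like cells in all 11 alternatives that gave a value (log2 -4.41 to -2.85), Tshr in all 12 and Dio2 at least 1.5-fold higher in wall-like cells in all 10. With at least 200 genes per barcode the tanycyte-like log2 ratios were -4.41 for Slco1c1, -2.28 for Tshr, -0.14 for Dio2 and 0.96 for Crym, and with at least 800 genes -1.98 for Tshr, -0.18 for Dio2 and 1.66 for Crym; the class then held the median eminence-like cluster alone, no wall-like value could be had, and Slco1c1, with 0 Irx5KO UMIs at 800 genes, gave none. Over all cells Slco1c1 was at -2.73 with at least 800 genes and at -1.23 as a mean over cells. Keeping the same clusters at 800 genes (a setting chosen after seeing the data) leaves the same cells in that sum, so it adds nothing there. Splitting tanycyte-like cells by median eminence markers instead of clusters gave median eminence over wall log2 ratios of 1.71 in Irx5KO and 2.92 in WT for Dio2, -0.83 in Irx5KO and -0.88 in WT for Crym, -1.34 in Irx5KO and -0.20 in WT for Tshr and 0.76 in WT for Slco1c1, where the clusters gave -0.98, and a wall-like Dio2 log2 ratio of Irx5KO to WT of 1.29 (2.45-fold higher). Genes 1.5-fold apart in tanycyte-like cells numbered 259 higher and 223 lower at 200 genes, 217 and 209 at 800 genes, 6892 and 4814 with a minimum of 1 UMI, and 58 and 83 at 200 UMIs, where 41.1% were higher; in neuron-like cells they numbered 7021 and 5019 at 1 UMI, and 319 and 230 at 200 UMIs. The cause of these moves was not tested beyond the cells and genes each setting leaves in. Scaling moved the median gene by at most 0.07 on the log2 scale. Slco1c1 and Tshr in endothelial-like and pars tuberalis-like cells rest on few UMIs, which limits what can be seen there. Both genes also had few UMIs in the median eminence-like cluster.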
